A study of Mus musculus with 11 samples.

Results

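The 10 genes described here encode suppressors of cytokine signalling and genes linked to the transcription factor STAT3, and they were taken by symbol from the 55421 mouse genes of an RNA sequencing count table. They are Socs1, Socs2, Socs3 and Cish, which encode inhibitors, Il4ra, which encodes a receptor chain, and Stat3, Bcl3, Pim1, Cebpb and Cebpd. All 10 had enough reads to be tested in each of the 3 comparisons, so none was lost to a filter on low counts.

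The 11 libraries came from hearts of female C57BL/6J mice aged 8 weeks, with 1 animal per library. In 4 mice a myocardial infarction (MI) was set by permanent ligation of the left anterior descending coronary artery (LAD), and GI254023X (A10i), a hydroxamate inhibitor of the sheddase ADAM10, was dosed at 100 mg/kg from subcutaneous osmotic minipumps. A further 4 mice with MI received the solvent, DMSO, and these are called the DMSO group. Infarct and border zone were sampled 3 days after ligation. The 3 sham mice were operated without ligation, are labelled as given DMSO, and provided healthy heart tissue. All animals therefore received the solvent, no sham mouse received A10i, and MI and the sampled zone cannot be told apart in either comparison with sham. Both comparisons with sham also share the same 3 sham libraries.

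Cytokines of the interleukin-6 family, and many others, bind receptor chains that carry Janus kinases (JAKs). The kinases phosphorylate STAT factors such as STAT3, which enter the nucleus and switch on target genes. Among these targets are the SOCS genes, whose proteins bind receptors or kinases and dampen the same signal, so that a rise in SOCS transcripts is widely used as a sign that a cytokine has acted on a tissue. In the infarcted heart this route is known from cardiomyocytes and from invading leukocytes alike.

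Library totals lay between 21702623 and 29511768 counts, and mitochondrial transcripts took 21.5% to 22.2% of counts in sham, 14.8% to 18.6% in the DMSO group and 15.7% to 17.9% in the A10i group. Cardiomyocyte markers were abundant in all 11 libraries, but their sum was lower in every infarcted library than in any sham library. Replicate libraries differed by more than counting error in all 15 pairs within groups, with a ratio of chi-square to degrees of freedom of 4.04 to 60.8, so no pair agreed within sampling noise. Levels below are normalized counts, in which every library is brought to a common size with TMM factors. A gene was called changed at an adjusted p under 0.01 (edgeR quasi-likelihood F-test, two-sided, Benjamini-Hochberg over all genes tested).

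Before the values, the DNA around 2 of the genes is shown, because Socs3 gave the largest change of the 10 with MI and Cebpb the smallest p with A10i. The sequences are from RefSeq (GRCm38.p6, the assembly also called mm10), which held an upstream window of 250 bases for 8 of the 10 genes and none for Socs2 or Cebpd. The window was searched on both strands for the STAT motif TTCNNNGAA, for the same half-sites 4 bases apart, and for the C/EBP motif TTGCNNAA. For Socs3, on the minus strand of chromosome 11 at chr11:117969452-117969616, the stretch lies from 250 to 86 bases before the RefSeq start. It sits inside the span of the Ensembl gene but outside every counted exon. Capitals mark a STAT motif at 154 to 146 bases before the start.
Socs3: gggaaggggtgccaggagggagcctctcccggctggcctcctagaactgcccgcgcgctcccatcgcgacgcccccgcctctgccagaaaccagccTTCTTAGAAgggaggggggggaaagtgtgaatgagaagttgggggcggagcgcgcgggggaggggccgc
Cebpb: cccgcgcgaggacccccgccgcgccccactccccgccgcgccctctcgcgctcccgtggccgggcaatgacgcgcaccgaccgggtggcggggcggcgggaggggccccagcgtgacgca
The Cebpb stretch covers the 120 bases before its start, on the plus strand at chr2:167688795-167688914. It has no capitals because none of the 3 motifs was found in its window. GC content was 70.3% in the Socs3 stretch and 83.3% in the Cebpb stretch.

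Among these 8 genes, of which Pim1 had 2 windows, Socs3 alone held the STAT motif TTCNNNGAA, and no window held a match with the half-sites 4 bases apart or to the C/EBP motif. Over all 32851 promoter windows of the same length, 7.02% held TTCNNNGAA, 5.85% held the wider form and 9.56% held TTGCNNAA. A match is a description of letters and not of a bound site, and no match speaks only for these 250 bases. The RefSeq start of Socs3 lies 681 bases and that of Cish 633 bases from the Ensembl gene start, so other start sites would give other windows.

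Compared with sham, 7 of the 10 genes were higher in the DMSO group 3 days after MI and none was lower. The background in this comparison was 12.9% of 17117 genes called higher and 9.6% called lower. Socs3, Il4ra and Bcl3 rose most, by 12.5-fold, 6.70-fold and 6.01-fold, while the groups overlapped for Socs2 and Cish. The median log2 fold change of the 10 genes was 1.07, beside 0.0021 over all genes tested. When libraries were scaled by total count alone, the median of all genes moved to 0.21 and the split of calls from 2215 higher and 1643 lower to 3330 higher and 708 lower, while the calls of all 10 genes were unaltered. Because these are bulk libraries, fewer cells of a type and less RNA per cell cannot be told apart in any of these values.

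**Figure D1:**
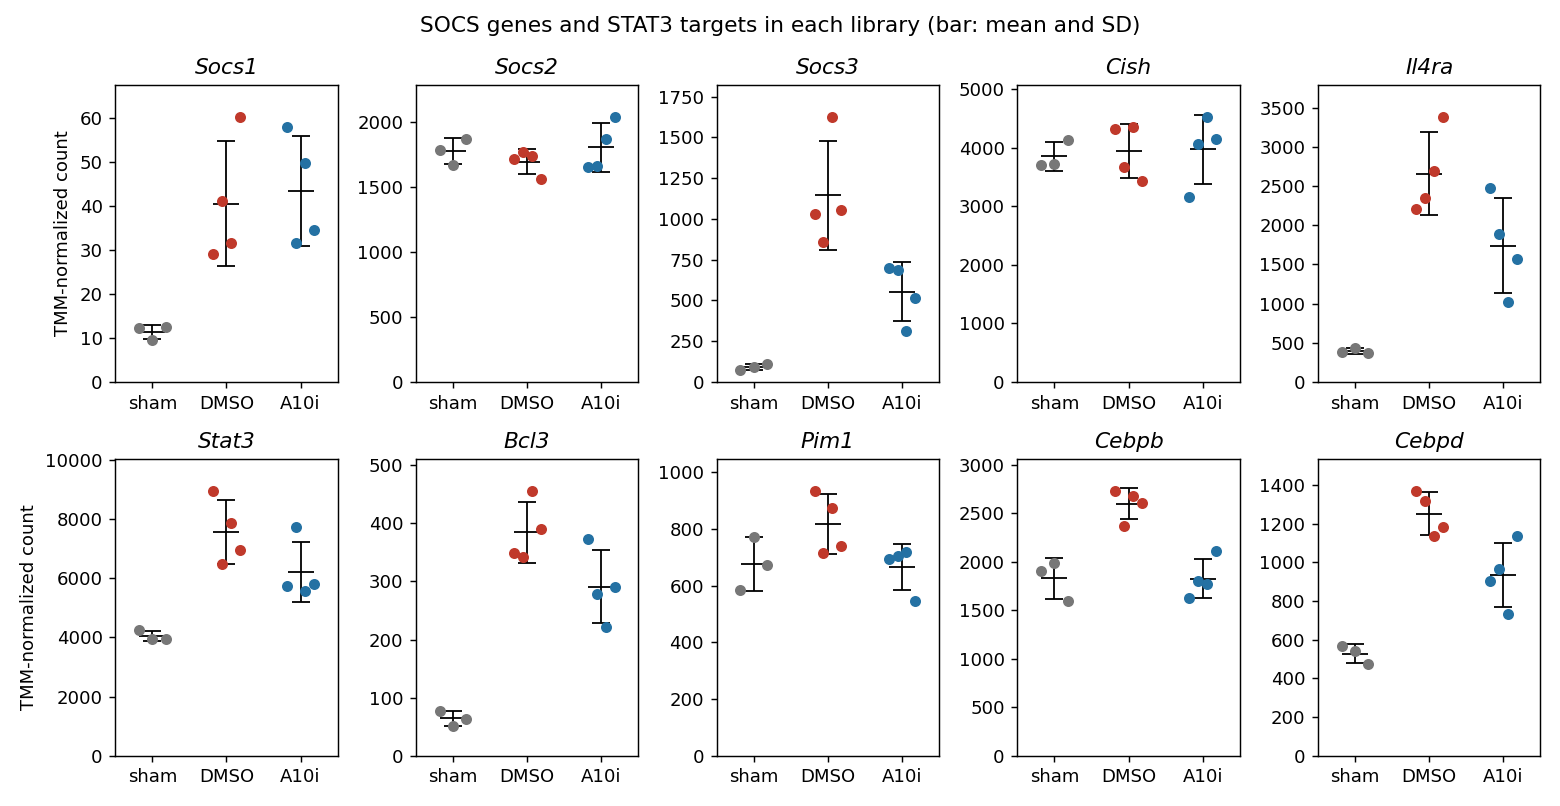
TMM-normalized count (vertical axis, from 0) of each of the 10 genes in every library of the sham (n = 3), DMSO (n = 4) and A10i (n = 4) groups, with bars for the mean and SD. For Socs3, the highest sham library is at 108, the A10i libraries lie from 310 to 701, and the DMSO libraries from 860 to 1626.

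Socs3 encodes the main inhibitor of signalling through gp130, the shared receptor chain of the interleukin-6 family. Its gene lies on chromosome 11 (mm10, 117966079 to 117970047, minus strand). The sham libraries held 74.2, 90.8 and 108 normalized counts, and the DMSO libraries held 1032, 860, 1626 and 1056. The lowest DMSO library was thus far above the highest sham library, and the highest value belonged to mouse A128. The log2 fold change was 3.64 ± 0.25 (SE, adjusted p = 5.6e-05), a change larger in size than that of 99.0% of the genes tested.

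Socs1 encodes an inhibitor that binds JAKs directly and is best known for limiting interferon signals. It was the least abundant of the 10 genes, with 12.2, 9.56 and 12.4 normalized counts in sham and 29.1, 41.1, 31.5 and 60.2 in the DMSO group. The groups did not overlap, but the DMSO libraries spread more widely than for any other gene of the set (coefficient of variation 35.0%). The log2 fold change was 1.82 ± 0.34 (SE, adjusted p = 0.0028). Without any one of the 3 sham libraries the adjusted p lay between 0.0140 and 0.0180, above the threshold.

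Socs2 and Cish are classical targets of STAT5 and restrain growth hormone and related signals. Cish was abundant in every library, at 3705, 3718 and 4131 normalized counts in sham and 4321, 3674, 4347 and 3426 in the DMSO group. Socs2 was at 1786, 1671 and 1871 in sham and 1715, 1769, 1734 and 1559 in the DMSO group. Both groups overlapped for both genes, and neither passed the test. The 95% interval of the log2 fold change ran from -0.21 to 0.27 for Cish and from -0.24 to 0.10 for Socs2.

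Il4ra encodes the receptor chain shared by interleukin-4 and interleukin-13, which signals through STAT6. It had 388, 432 and 367 normalized counts in sham and 2204, 2344, 2698 and 3386 in the DMSO group. Every DMSO library lay above every sham library, and mouse A129 was the highest. The log2 fold change was 2.74 ± 0.16 (SE, adjusted p = 1.9e-05).

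Stat3 itself was among the more abundant genes of the set and rose less than Socs3. Sham libraries held 4255, 3940 and 3959 normalized counts, and DMSO libraries held 8973, 6501, 7865 and 6950. The groups did not overlap, and the log2 fold change was 0.90 ± 0.12 (SE, adjusted p = 0.00061).

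Bcl3 encodes a member of the I-kappa-B family that acts in the nucleus with NF-kB subunits. It was at 77.5, 51.6 and 62.9 normalized counts in sham and at 349, 342, 457 and 390 in the DMSO group, with no overlap. The log2 fold change was 2.59 ± 0.17 (SE, adjusted p = 3.2e-05). Pim1, a kinase gene that supports cell survival and growth, had 585, 773 and 673 normalized counts in sham and 936, 714, 874 and 742 in the DMSO group. These groups overlapped, and the log2 fold change of 0.27 ± 0.13 (SE) did not pass (adjusted p = 0.119, 95% interval -0.02 to 0.55).

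Cebpb and Cebpd encode the C/EBP transcription factors of the acute-phase response. Cebpd was at 568, 540 and 473 normalized counts in sham and at 1371, 1315, 1137 and 1183 in the DMSO group. Cebpb was at 1901, 1991 and 1591 in sham and at 2734, 2370, 2678 and 2604 in the DMSO group. Both genes were higher in all 4 DMSO libraries than in any sham library. The log2 fold change was 1.24 ± 0.10 for Cebpd (SE, adjusted p = 6.1e-05) and 0.50 ± 0.10 for Cebpb (SE, adjusted p = 0.0032). For Cebpb the adjusted p rose to 0.0101 to 0.0201 when any one sham library was left out.

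In the A10i group, 6 of the 10 genes were called higher than in sham and none lower, beside backgrounds of 13.7% higher and 9.11% lower over 16971 genes. The 6 were Socs3, Bcl3, Il4ra, Socs1, Cebpd and Stat3, with log2 fold changes of 2.60 ± 0.30, 2.19 ± 0.20, 2.14 ± 0.27, 1.93 ± 0.31, 0.83 ± 0.14 and 0.62 ± 0.12 (SE). Their adjusted p-values lay between 0.00014 and 0.0026. Stat3 lost its call without any one sham library (adjusted p 0.0126 to 0.0176), and Cebpd lost it without sham mouse S3 (adjusted p = 0.0110). Cebpb was the gene called in the DMSO group and not here: its log2 fold change against sham was 0.0021, with a 95% interval from -0.22 to 0.23. Pim1, Cish and Socs2 had log2 fold changes of -0.02, 0.05 and 0.02 and did not pass. The median over the 10 genes was 0.72, beside -0.0054 over all genes tested. Scaling by total count alone moved the latter to 0.18, and the split over all genes from 2333 higher and 1546 lower to 3436 higher and 577 lower, with no call among the 10 genes altered.

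The comparison of A10i with DMSO asked how the 10 genes stood in infarcted tissue when ADAM10 was inhibited. By edgeR none of the 10 passed, and the background was 0% of 16792 genes called lower. At an unadjusted p under 0.05, 6 of the 10 genes were lower with A10i and none higher, beside 6.73% of all genes lower at that p. They were Socs3, Cebpb, Cebpd, Il4ra, Bcl3 and Pim1. For Socs3, Cebpb and Cebpd all 4 A10i libraries lay below all 4 DMSO libraries, beside 4.11% of all genes with such a gap. With DESeq2, an alternative count test here, Socs3 and Cebpb passed at an adjusted p under 0.01, beside a background of 0.678% of 18151 genes called lower. By limma-voom none of the 10 was called. The study itself tested with DESeq2 together with the package IHW, and reported genes changed in both directions in this comparison. The median log2 fold change was -0.35 over the 10 genes and 0.0034 over all genes.

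**Figure D2:**
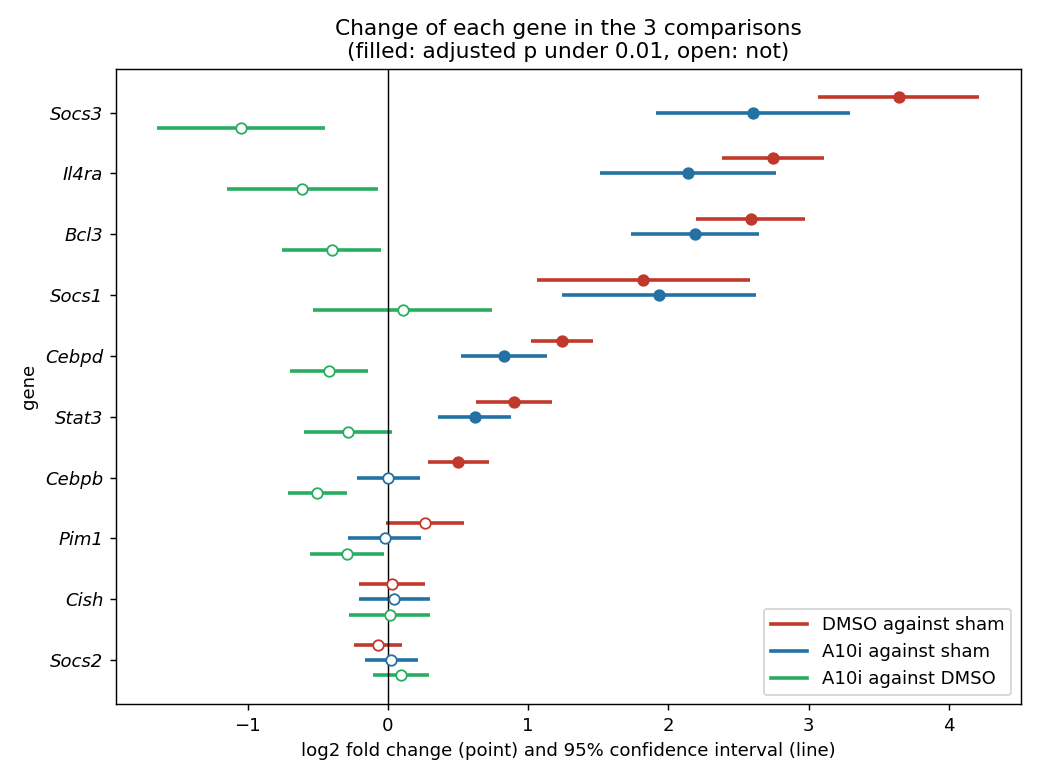
Log2 fold change of each gene (points) with its 95% confidence interval (lines) for DMSO against sham, A10i against sham and A10i against DMSO, with filled points for an adjusted p under 0.01 by edgeR. Socs3 stands at 3.64, 2.60 and -1.05 in the 3 comparisons, and Socs2 and Cish lie near 0 in all of them.

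Socs3 showed the largest difference of the 10 genes between the infarcted groups. The A10i libraries held 701, 687, 310 and 516 normalized counts, against 860 to 1626 in the DMSO group, and mouse A119 was the lowest. The level with A10i was 2.06-fold lower (log2 fold change -1.05 ± 0.27, SE, unadjusted p = 0.0032, adjusted p = 0.147 by edgeR). DESeq2 gave an adjusted p of 0.0080 for Socs3. That value ranged from 0.0015 to 0.0595 when 1 library at a time was left out, and it was above 0.01 without A105, A128, A129, A119 or A120. Against sham, Socs3 was 6.08-fold higher with A10i and 12.5-fold higher with DMSO.

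Cebpb gave the smallest p of the set. Its A10i libraries held 1623, 1805, 1772 and 2106 normalized counts, against 2370 to 2734 in the DMSO group, so that the A10i libraries covered nearly the same range as the sham libraries. The log2 fold change was -0.50 ± 0.10 (SE, unadjusted p = 0.00032, adjusted p = 0.0802 by edgeR). By DESeq2 the adjusted p was 0.00065, and it ranged from 7.4e-05 to 0.0136 with 1 library left out, above 0.01 without A105, A117 or A119. Cebpd, its relative, held 902, 964, 734 and 1134 normalized counts with A10i, the last of these just under the lowest DMSO library at 1137. Its log2 fold change was -0.42 ± 0.13 (SE, adjusted p = 0.187 by edgeR and 0.0865 by DESeq2).

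Il4ra and Bcl3 were lower on average with A10i, but single mice overlapped the DMSO group. Il4ra had 2473, 1884, 1024 and 1575 normalized counts, and mouse A116 at 2473 was above A105 and A127 of the DMSO group. Bcl3 had 373, 278, 222 and 291, where A116 was again the highest and above A105 and A127. The log2 fold changes were -0.61 ± 0.24 for Il4ra and -0.40 ± 0.16 for Bcl3 (SE), with adjusted p-values of 0.300 and 0.296 by edgeR. For both genes A119 was the lowest library, as it was for Socs3 and Cebpd.

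Pim1 had 692, 705, 718 and 547 normalized counts with A10i and a log2 fold change of -0.29 ± 0.12 (SE, adjusted p = 0.311). Only A119 at 718 exceeded the lowest DMSO library at 714. Stat3 had 5726, 7721, 5571 and 5796, where A117 stood apart from the other 3 libraries and overlapped the DMSO group. Its log2 fold change of -0.29 ± 0.14 (SE, unadjusted p = 0.0721) did not reach the unadjusted threshold either.

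Socs1, Socs2 and Cish had log2 fold changes close to 0 between A10i and DMSO. Socs1 was at 57.8, 31.7, 49.6 and 34.5 normalized counts with A10i, within the DMSO range of 29.1 to 60.2, and its low count left a wide 95% interval of -0.54 to 0.75 for the log2 fold change. For Socs2, at 1650, 1659, 1865 and 2039, the interval was narrower, from -0.11 to 0.29. Cish was at 3150, 4058, 4527 and 4141, with an interval from -0.28 to 0.30.

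The count of 6 genes at an unadjusted p under 0.05 depended on single mice. It was 3 without DMSO mouse A128 and 3 without A10i mouse A120, and those 3 were in both cases Socs3, Cebpd and Cebpb. It was 5 to 7 without any other library. Socs3, Cebpd and Cebpb stayed under 0.05 in each of the 8 sets with 1 library left out.

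Neutrophil transcripts moved with some of these genes and not with others. A list of 13 neutrophil markers, among them S100a8, S100a9, Mmp8 and Csf3r, summed to 89.9 to 125 normalized counts in sham, 2640 to 5404 in the DMSO group and 705 to 1899 in the A10i group. The defining marker Ly6g was at 0 in all sham libraries, and Elane was at 0 in all 11. The mean log2 CPM (counts scaled to library size) of the list was 1.49 ± 0.16 with DMSO and 0.21 ± 0.55 with A10i (SD, n = 4 each). This difference had an exact permutation p of 0.0286, two-sided, which is the smallest that 4 against 4 libraries can give. S100a8, S100a9 and Mmp9 of the list were already reported as lower with A10i in the study of these libraries. The p is therefore a description and no independent support.

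Over the 8 infarcted libraries, Pearson's r between log2 CPM of a gene and the neutrophil list mean was -0.16 for Socs1, -0.58 for Socs2 and -0.29 for Cish. For the other genes it ran from 0.64 (Pim1) to 0.95 (Socs3). The 2 groups differ in the list, so r also holds that difference. Within the A10i group, the 4 mice ranked in the same order for the neutrophil sum, for Socs3 and for Il4ra, with A119 lowest, then A120, A117 and A116. In the DMSO group, mouse A127 had the lowest neutrophil sum, 2640, and also the lowest Socs3, Bcl3, Cebpb, Stat3 and Pim1. Il4ra did not follow there, since its lowest DMSO library was A105, which had the highest neutrophil sum, 5404, and the lowest DMSO library for Cebpd was A128. Cebpb did not rank this way within the A10i group, where A116 had the highest neutrophil sum and the lowest Cebpb. Monocyte markers, 5 genes that include Chil3, summed to 3132 to 6766 with DMSO and 2489 to 4807 with A10i. Their mean log2 CPM was 4.11 ± 0.41 and 3.74 ± 0.42 (SD, n = 4 each), and the groups overlapped. This lower mean was not shared by the list, as 2 of the 5 genes were lower and 3 higher. Their median log2 fold change was 0.0037, and 1 gene was lower at an unadjusted p under 0.05. By contrast, 8 macrophage markers summed to 14087 to 23757 with DMSO and 18360 to 34550 with A10i, and 6 fibroblast markers to 30573 to 98403 and 75801 to 147606. Cardiomyocyte markers summed to 868832 to 1258740 with DMSO and to 1035560 to 1406840 with A10i. In sham, cardiomyocyte markers summed to 1812820 to 1844300 and monocyte markers to 627 to 794. The sham sums were 9644 to 10172 for macrophage and 20498 to 21676 for fibroblast markers. By flow cytometry of infarct and border zone 3 days after MI, the study counted fewer neutrophils with A10i. Its monocyte and macrophage counts did not differ significantly. The part of any of these cell types in the lower Socs3, Cebpb and Cebpd was not tested.

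**Figure D3:**
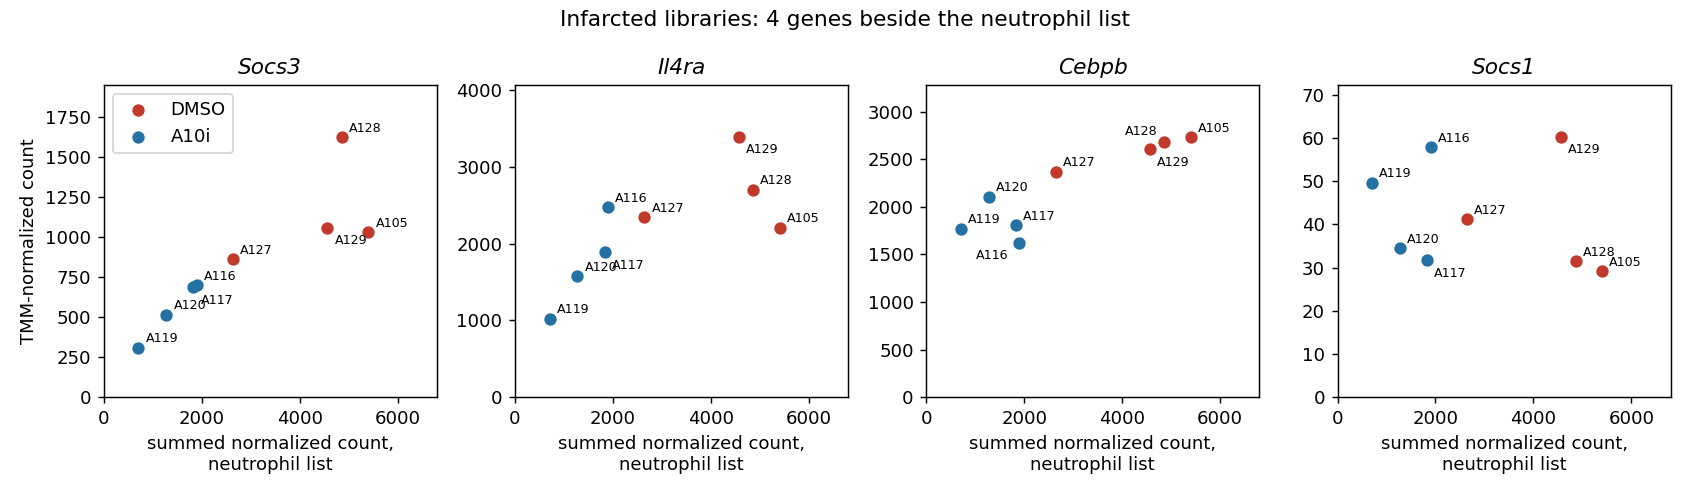
Normalized count of Socs3, Il4ra, Cebpb and Socs1 (vertical axes, from 0) against the summed normalized count of 13 neutrophil markers (horizontal axis) in the 8 infarcted libraries, each labelled by mouse. Mouse A119 has the lowest neutrophil sum, 705, and the lowest Socs3 and Il4ra, while its Socs1 lies between the other A10i mice.

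Between genes, levels were compared as CPM per kilobase of counted exon, which depends on the gene model since the exons of all transcripts are joined. In sham, Cebpb led with 47.5 ± 5.46, ahead of Cish at 23.5 ± 1.48 and Stat3 at 16.6 ± 0.73 CPM per kilobase (SD, n = 3). Pim1 and Socs2 followed and overlapped each other, Socs3 overlapped Bcl3, and Socs1 was last at 0.15 ± 0.02. In the DMSO group Cebpb was at 67.5 ± 4.17, and Stat3 at 31.1 ± 4.48 now lay above Cish at 24.0 ± 2.83 with no overlap. Il4ra at 17.3 ± 3.44, Socs3 at 15.5 ± 4.51 and Cebpd at 13.1 ± 1.15 overlapped their neighbours (SD, n = 4). Socs3 thus moved from place 8 of 10 in sham to place 5 in the DMSO group. In the A10i group it took place 7, at 7.48 ± 2.47 CPM per kilobase, and from Il4ra at place 4 to Socs2 at place 8 each gene overlapped the next.

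**Figure D4:**
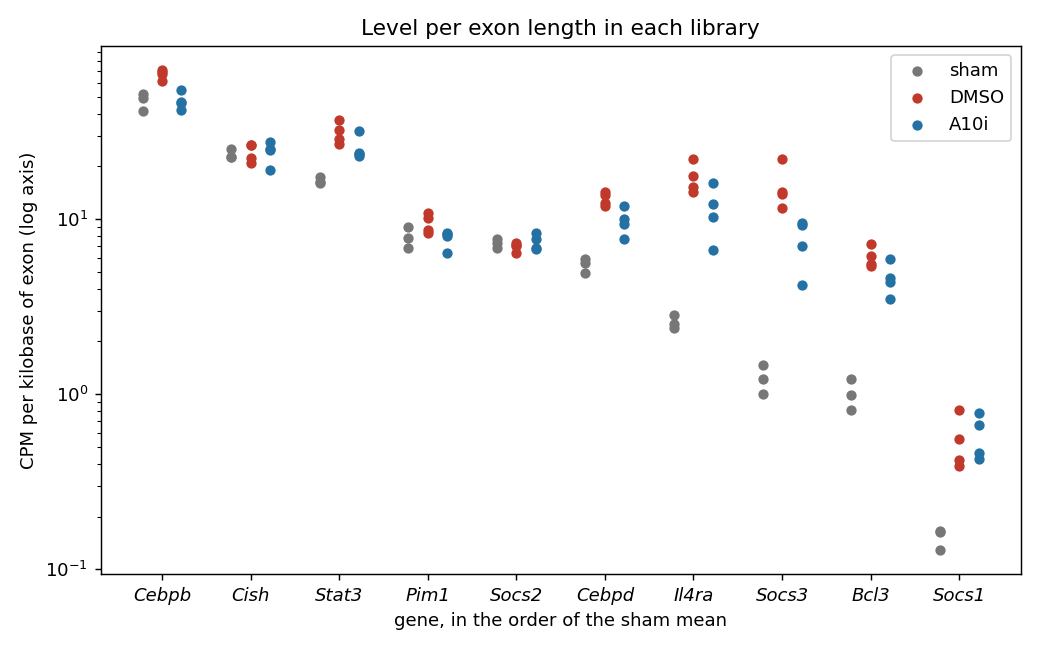
CPM per kilobase of counted exon (log axis) of the 10 genes in every library of the 3 groups, in the order of the sham mean. Cebpb leads in all groups and Socs1 is last, with DMSO means of 67.5 and 0.54, and Cish lies at 23.5, 24.0 and 24.2 in sham, DMSO and A10i.

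The other genes of the pathway give the setting for these 10. Over all genes, 12.9% were called higher and 9.6% lower with DMSO against sham, the shares to set beside each list count below. With A10i against sham the shares were 13.7% and 9.11%. Between A10i and DMSO, 6.73% of all genes were lower at an unadjusted p under 0.05. The remaining SOCS genes did not follow Socs1 and Socs3: of Socs4, Socs5, Socs6 and Socs7, only Socs7 passed against sham, and it was lower (log2 fold change -0.41, adjusted p = 0.0032 with DMSO). Of 9 JAK and other STAT genes tested with DMSO, Jak3 was higher (0.63) and Stat5a and Stat5b were lower (-0.61 and -0.39, adjusted p = 0.00074 and 0.0037). Stat5a and Stat5b encode the factors that induce Cish and Socs2. Of 12 receptor genes of the STAT5 route, 6 were higher with DMSO, led by Csf3r, Csf2rb2 and Csf2rb (4.15, 3.36 and 3.18), which encode receptor chains of myeloid growth factors. Another 2 were lower, among them the prolactin receptor gene Prlr (-0.95, adjusted p = 0.0039). Csf3r is shared with the neutrophil markers. None of the 4 SOCS genes and 9 JAK and STAT genes had an unadjusted p under 0.05 between A10i and DMSO.

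Among 9 other genes that limit JAK-STAT signals, the phosphatase genes Ptpn6, Ptpn1 and Ptpn2 were higher with DMSO than in sham, with log2 fold changes of 1.40, 0.96 and 0.71, and the phosphatase gene Ptpn11 was lower (-0.40, adjusted p = 0.0088). Ptpn2 was the only gene of that list at an unadjusted p under 0.05 with A10i (-0.33, adjusted p = 0.193). Of the interleukin-6 family, 7 of 13 genes tested were higher with DMSO than in sham and none lower. Il6 had at most 1 count in each sham library, 46 to 220 counts with DMSO and 21 to 45 with A10i. Osm had at most 1 count in each sham library, 16 to 30 with DMSO and 2 to 26 with A10i, so that the infarcted groups overlapped. Lif averaged 8.57, 70.1 and 38.6 normalized counts in sham, DMSO and A10i. Clcf1, which encodes a gp130 ligand, averaged 50.1, 187 and 88.5 (A10i against DMSO adjusted p = 0.0514 by edgeR). Between A10i and DMSO, 5 of the 13 genes tested were lower and 1 was higher at an unadjusted p under 0.05. Over all genes, 6.73% were lower at that p. Unlike these ligand genes, the receptor gene Cntfr averaged more with A10i, at 106 normalized counts against 64.3 with DMSO. The receptor gene Il6st, which encodes gp130, did not pass in any comparison.

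A list of 26 other genes described as STAT3 targets, 25 of them tested, was 18 higher and 0 lower with DMSO than in sham, and likewise 18 higher and 0 lower with A10i. Its largest changes with DMSO were those of Saa3, Timp1 and Serpina3n. Saa3 had at most 3 counts in a sham library and 698 to 2176 with DMSO, and Timp1 rose from 29.3 to 2909 normalized counts on average. Between A10i and DMSO none of the 25 passed by edgeR, and the median log2 fold change was -0.31. At an unadjusted p under 0.05, 12 were lower and none higher, beside 6.73% of all genes lower at that p. Junb, Myc and Gadd45g were among the 12, at -0.62, -1.02 and -1.16. Each had no overlap between the groups, beside 4.11% of all genes with such a gap. Saa3, Timp1 and Serpina3n were at -0.28, -0.57 and -0.30 with adjusted p-values of 0.786, 0.520 and 0.718, so the genes that rose most with MI were not those with the clearest difference between A10i and DMSO. The list shares Lcn2 with the neutrophil markers and Osmr with the interleukin-6 family.

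Close relatives of the other genes were mixed. Of the other C/EBP genes Cebpa was higher with DMSO than in sham (log2 fold change 1.15, adjusted p = 0.0063), and it was at 0.24 between A10i and DMSO where Cebpb was at -0.50. Pim2 and Pim3 did not pass in any comparison, as Pim1 did not. Of 10 genes for NF-kB subunits and inhibitors, 5 were higher with DMSO, led by Nfkbid, Nfkbiz and Relb (2.38, 1.65 and 0.70), where Bcl3 had 2.59. The interleukin-4 and interleukin-13 list had 4 genes higher and 1 lower of 7 tested with DMSO. Chil3 and Arg1, genes of macrophage activation, had at most 2 counts in each sham library and averaged 1310 and 2115 normalized counts with DMSO and 320 and 613 with A10i, while Retnla was lower with DMSO (-3.08). Il13ra1, which encodes a partner chain of the Il4ra product, was higher with DMSO (0.69, adjusted p = 0.00031), and it was lower with A10i at an unadjusted p of 0.0139 (-0.22, adjusted p = 0.234). Of the 6 genes of this list tested between A10i and DMSO, 4 were lower and 1 higher at an unadjusted p under 0.05. Over all genes, 6.73% were lower at that p. The higher one was Mrc1, also among the macrophage markers, which averaged 2113 normalized counts with DMSO and 2816 with A10i. Stat6 did not pass in any comparison.

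Over the 8 infarcted libraries, the genes whose log2 CPM was most like that of Il4ra were Mmp8, a neutrophil collagenase gene, Gm14287 and Il17ra, with Pearson's r of 0.987, 0.987 and 0.979 among 16791 genes. For Socs3 they were Pcdhga3, Gm15934 and Ptx3 (r = 0.985, 0.975 and 0.966), and for Cish they were Sccpdh, Gm48016 and Ube3b (r = 0.981, 0.976 and 0.973). These are descriptions over 8 libraries of 2 groups that differ in the level of several of these genes, and Gm15934, Gm48016 and Gm14287 had at most 49 counts in a library. Ptx3 lay between 4 and 1542 counts over all 11 libraries and Cish's likeliest gene, Sccpdh, between 1122 and 1718, so the likeness of Cish is one of small differences.

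Cish, Pim1, Stat3, Bcl3, Cebpd, Cebpb and Il4ra share exon bases with a gene on the opposite strand, and the strand setting of the counting is not given, so reads there cannot be told apart. The largest such partners by count were Tmem189 for Cebpb (312 shared bases, 529 to 954 counts), Stat5a for Stat3 (72 bases, 425 to 780 counts) and Spidr for Cebpd (562 bases, 60 to 238 counts). Partners of Cish, Pim1, Bcl3 and Il4ra had at most 56 counts in a library. Socs1, Socs2 and Socs3 share no exon bases with another gene.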

How the data were processed

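RNA was enriched for poly(A), made into strand-specific libraries and sequenced in pairs. Per the labels and methods, the authors aligned reads with GSNAP to mm10 and counted uniquely mapped reads per Ensembl gene with featureCounts (2.0.1). The deposited table holds raw counts, not normalized, and 92 spike-in rows were left out. Symbols came from GENCODE (55154 of 55421 identifiers). Each pair of groups was tested on its own libraries with edgeR 4.0.16 in R 4.3.3 (TMM, filterByExpr, robust quasi-likelihood), at the adjusted p of 0.01 that the study used. DESeq2 1.42.0, limma-voom 3.58.1, other scalings and filters, a joint fit and each library left out were alternatives. Normalized counts are counts brought to the mean TMM-adjusted library size, and log2 CPM used a prior count of 2. The depth of 21702623 counts or more leaves Socs1, with about 10 to 60 counts, as the least precise gene. The scripts were tested on simulated data with 100 genes changed 2-fold and 100 changed 4-fold. For A10i against DMSO at an adjusted p under 0.01, edgeR called 72 and 92 of them, with 4 false calls. DESeq2 called 76 and 95, with 23 false calls, and limma-voom 68 and 90, with 3 false calls. The simulated counts followed the count model of edgeR, with spreads estimated from these libraries. Recovery in the real libraries can therefore differ. P-values set the difference between groups against the spread between animals. The genes, lists and motifs were chosen with earlier results of these data known. Named beside the 10 genes were the 3 genes of each list with the largest change among those called with DMSO against sham, genes at an unadjusted p under 0.05 with A10i against DMSO, and the 3 genes most like Socs3, Cish and Il4ra. Ptpn11, Prlr, Il6st, Stat6 and the uncalled SOCS and PIM genes were named outside that rule, after their values were seen. A gene that this rule would name is not reported here.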

Additional observations from a re-analysis of the deposited data

Results flagged for a closer look

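Of 20 sets of 4 libraries (10 genes in the DMSO and A10i groups), 2 held a library set apart from the other 3, judged by its gap to the nearest value as a share of the range on the log2 CPM scale. A share above Dixon's 95% critical value for 4 values counts as set apart, and about 1 set in 20 passes by chance. Pim1 in A10i mouse A120 was the lowest of its group at 547 normalized counts, with a gap of 0.868 of the range. Stat3 in A10i mouse A117 was the highest at 7721, with a gap of 0.879 of the range. Without A120, the log2 fold change of Pim1 for A10i against DMSO was -0.21 (unadjusted p = 0.0959). Without A117, that of Stat3 was -0.41 (unadjusted p = 0.0125).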

How the results depend on the processing

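Depth limits mainly Socs1, and 3 sham libraries limit the calls against sham. With 1 library left out at a time, 5 to 7 of the 10 genes were called for DMSO and 4 to 6 for A10i, and over all genes 1525 to 4051 and 1620 to 4365, the low counts coming from the sets without a sham library. At an adjusted p under 0.05 the calls over all genes were 6832 for DMSO and 6671 for A10i against sham, and 12 for A10i against DMSO, where 0 passed at 0.01. For that comparison DESeq2 called 2 of the 10 genes and 227 of all, no filter on low counts gave 43 and the joint fit of 11 libraries 11, while leaving out 1 library gave 0 to 1. With 1 library left out, an alternative added after the data were seen, DESeq2 called 0 to 3 of the 10 genes (the third being Il4ra without A116, log2 fold change -0.83, adjusted p = 0.0078), and 3 to 7 were at an unadjusted p under 0.05 by edgeR. The sign turned for log2 fold changes near 0 that had not passed. Scaled by total count alone, Socs2 moved to 0.13 for DMSO against sham, Pim1 to 0.17 for A10i against sham and Cish to -0.0032 for A10i against DMSO. Cebpb for A10i against sham was -0.00036 with no filter and -0.00095 in the joint fit. With 1 library left out, Cish ranged from -0.0303 to 0.0929 for DMSO and from -0.0198 to 0.14 for A10i against sham, and from -0.0571 to 0.11 between them. Against sham with A10i, Socs2 ranged from -0.0371 to 0.0670, Pim1 from -0.12 to 0.0830 and Cebpb from -0.0910 to 0.0658. Socs1 ranged from -0.0617 to 0.35 between A10i and DMSO. No other value turned. Apart from the calls of Socs1, Cebpb, Stat3 and Cebpd lost against sham with a library left out, and those of Socs3, Cebpb and, without A116, Il4ra gained by DESeq2, every edgeR call held under the alternatives run. No paired analysis was possible because the groups share no replicate numbers.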
